A study of Mus musculus with 10 samples.

Results

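The Ikaros family genes Ikzf1, Ikzf2, Ikzf3, Ikzf4 and Ikzf5 were followed through an ATAC-seq data set of mouse regulatory T (Treg) cells. ATAC-seq inserts sequencing adapters into open DNA with a transposase, so the read count of a region measures its accessibility. A region of the deposited count table was taken for a gene when it overlapped the gene's protein-coding span in GRCm38, or when that span was the nearest within 100 kb. This gave 102 of the 77076 regions of the table: 27 for Ikzf1, 51 for Ikzf2, 16 for Ikzf3, 7 for Ikzf4 and 1 for Ikzf5. All 102 passed the filter on low counts. An assigned gene is a position and not a shown target of the region.

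The cells were effector Treg (eTreg) or central Treg (cTreg) cells sorted from the lymph nodes and spleen of chimeric mice, hosts whose blood cells grew from mixed bone marrow of different donors. They were deficient in Fntb (FntbKO) or wild type (WT), which gave 2 libraries of FntbKO eTreg, 2 of FntbKO cTreg, 3 of WT eTreg and 3 of WT cTreg cells. The product of Fntb is one subunit of the farnesyltransferase enzyme, which adds a lipid anchor to small GTPases of the RAS family and to lamins. The Cre driver, the deleted exons, the sort gates, the ages and whether WT and FntbKO cells came from the same hosts are not given in the sources used here. The labels do not say whether the libraries come from separate animals, so the p-values measure only the spread between these libraries, which may be technical.

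The family takes its name from Ikaros, the product of Ikzf1, a zinc-finger protein needed for lymphocyte development. Its members bind DNA with fingers near the amino terminus and pair with each other through fingers at the carboxyl terminus. Ikaros, Helios (Ikzf2), Aiolos (Ikzf3) and Eos (Ikzf4) act largely as repressors and can recruit the nucleosome remodelling and deacetylase complex NuRD. Helios is carried by most thymus-derived Treg cells and helps to keep their identity stable, and Eos is a partner of the Treg factor Foxp3 in gene silencing. Pegasus (Ikzf5) is the most divergent of them and is found in many tissues.

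Total counts were between 5058328 and 15328775 per library. The first principal component, with 32.6% of the variance, put the eTreg libraries between 0.691 and 130.2 and the cTreg libraries between -155 and 9.02. Within each subset the FntbKO libraries lay below the WT libraries on it. They were at 0.691 and 28.7 against 65.0 to 130.2 in eTreg, and at -155 and -67.1 against -56.7 to 9.02 in cTreg cells. The library WT cTreg 2, at 9.02, lay among the eTreg libraries, and FntbKO cTreg 1 lay at the far end. The region at the low-coordinate end of Fntb (76837192 to 76837915 on chromosome 12) had 11.6 and 7.48 CPM (counts scaled to a common library total) in FntbKO eTreg, 13.1 and 11.2 in FntbKO cTreg, 29.4, 30.3 and 30.2 in WT eTreg and 36.9, 29.2 and 33.1 CPM in WT cTreg cells. Every FntbKO library lay below every WT library. Regions were found at all 5 Treg markers, Foxp3, Il2ra, Ctla4, Cd4 and Cd3e. The 112 regions of 8 effector Treg genes summed to 1269 and 1380 CPM in FntbKO eTreg and 1161 and 1190 in FntbKO cTreg. In WT they summed to 1432 to 1535 in eTreg and 1211 to 1380 CPM in cTreg. FntbKO eTreg thus lay below WT eTreg and within WT cTreg. Over 222 regions of 7 central Treg genes the sums were 2926 and 2934 CPM in FntbKO eTreg and 3202 and 3281 in FntbKO cTreg. They were 2538 to 2769 in WT eTreg and 2939 to 3129 CPM in WT cTreg. Markers of other cells moved with the groups in part: the 18 regions of 4 of 5 myeloid genes summed to 80.3 and 85.0 CPM in FntbKO eTreg, 71.9 and 74.0 in FntbKO cTreg, 88.7 to 109 in WT eTreg and 71.2 to 89.8 CPM in WT cTreg cells. The 14 regions of 3 of 6 B cell genes summed to 54.9 and 63.1 CPM in FntbKO eTreg, 49.0 and 51.0 in FntbKO cTreg, 67.3 to 75.0 in WT eTreg and 61.7 to 73.1 CPM in WT cTreg cells. In the mean of the genotype effects of both subsets, 2 of these B cell regions were called lower in FntbKO and 0 higher (14.3%). Of the 18 myeloid regions 2 were lower and 0 higher (11.1%), against 3.99% of all regions. The 34 regions of 5 genes of CD8 T or NK cells summed to 235 to 246 CPM in FntbKO eTreg, 281 to 290 in FntbKO cTreg, 249 to 272 in WT eTreg and 288 to 294 CPM in WT cTreg cells, so that all eTreg libraries lay below all cTreg libraries. In the mean of the subset effects of both genotypes 0 of these regions were called higher and 7 lower in eTreg cells. That is 20.6% of them, against 11% of all regions. The 8 regions of 4 erythroid genes summed to 40.9 to 50.1 CPM in FntbKO eTreg, 54.3 to 55.6 in FntbKO cTreg, 36.0 to 43.2 in WT eTreg and 44.6 to 50.5 CPM in WT cTreg cells, again lower in eTreg cells within each genotype. Of these regions 0 were called higher and 2 lower, both at Gata1 (25%, against 11% of all regions). The part of such cells in the results below was not tested.

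Sequences 5′ of an annotated start were at hand for Ikzf1 (2 starts) and Ikzf5 (1 start), and are shown because each lies wholly inside a region of the table, so that the values of these regions describe the DNA printed here. They are the 250 bases before the start in the RefSeq table of GRCm38.p6, read 5′ to 3′ on the strand of the gene. Capitals mark the single match to any of the motifs searched.
Ikzf1, chr11:11685675-11685924, plus strand: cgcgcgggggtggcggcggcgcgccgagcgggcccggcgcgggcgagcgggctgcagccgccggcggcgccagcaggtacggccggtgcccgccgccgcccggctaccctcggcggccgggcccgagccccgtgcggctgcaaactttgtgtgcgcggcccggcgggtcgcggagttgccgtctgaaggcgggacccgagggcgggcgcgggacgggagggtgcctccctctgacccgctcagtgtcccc
Ikzf1, chr11:11689927-11690176, plus strand: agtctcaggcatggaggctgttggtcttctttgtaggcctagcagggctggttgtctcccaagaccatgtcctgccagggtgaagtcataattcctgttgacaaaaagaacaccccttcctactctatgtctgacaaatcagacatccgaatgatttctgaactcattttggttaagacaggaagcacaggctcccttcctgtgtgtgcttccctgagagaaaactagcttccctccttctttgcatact
Ikzf5, chr7:131410479-131410728, minus strand: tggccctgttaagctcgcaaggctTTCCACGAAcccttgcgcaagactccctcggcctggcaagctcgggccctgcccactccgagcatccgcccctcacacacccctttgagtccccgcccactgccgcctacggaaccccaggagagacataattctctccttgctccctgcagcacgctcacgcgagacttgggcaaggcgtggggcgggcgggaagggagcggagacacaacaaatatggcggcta

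The first Ikzf1 sequence is 82% G and C, the second 47.6% and the Ikzf5 sequence 64%, against a median of 52.4% over 32851 promoter sequences of this length. The letters TGGGAA, the core bound by Ikaros family proteins, were on neither strand of the 3 sequences, and 21.6% of all promoter sequences held them. TGANTCA (AP-1, 6.75% of all promoter sequences), CCGGAAG (ETS, 6.91%), TGTGGT (RUNX, 14.0%) and ATTGG (the CCAAT box, 33.8%) were also not found. TTCNNNGAA, the pattern of STAT factors, was found once, in the Ikzf5 sequence, at position -226 from the start, and in 7.02% of all promoter sequences. It overlapped no other match. These are matches of letters only.

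Averaged over the regions of a gene, Ikzf5 had the densest signal of the family, but from 1 region that also overlaps the gene Acadsb. The densest single region was in Ikzf2, at 136 CPM per kb. Those of Ikzf5 (85.5), Ikzf1 (83.9) and Ikzf4 (81.1) were close to each other. The order of the averages is thus not that of the densest regions. Summed over the regions of a gene and divided by their summed width, accessibility averaged 88.4 CPM per kb for Ikzf5, 37.7 for Ikzf4, 32.6 for Ikzf1, 25.7 for Ikzf2 and 20.2 CPM per kb for Ikzf3, against a median of 23.8 over 15230 genes. The order of Ikzf5 above Ikzf4, and of Ikzf2 above Ikzf3, held with ranges over the 10 libraries that did not overlap. Ikzf4 exceeded Ikzf1 in 9 of the 10 libraries and Ikzf1 exceeded Ikzf2 in all 10, but these ranges overlapped (31.6 to 41.1 CPM per kb for Ikzf4, 26.3 to 37.9 for Ikzf1 and 23.5 to 27.1 for Ikzf2). A few regions carried much of the level of the smaller loci: the highest region held 63.0% of the summed CPM of Ikzf4, 27.7% of Ikzf3, 24.9% of Ikzf1 and 13.6% of Ikzf2.

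Summed over its regions, Ikzf1 was lower in eTreg than in cTreg cells, and it was the one family gene whose sum passed a test between subsets or genotypes. Its 27 regions summed to 401 and 403 CPM in FntbKO eTreg, 467 and 451 in FntbKO cTreg, 347, 390.2 and 324 in WT eTreg and 425, 388 and 423 CPM in WT cTreg cells. Both FntbKO eTreg libraries lay below both FntbKO cTreg libraries, whereas in WT the highest eTreg library lay just above the lowest cTreg library. The mean of the 2 subset effects was a log2 fold change of eTreg over cTreg of -0.21 (SE 0.05, edgeR adjusted p = 0.0118), while each effect alone missed the threshold of 0.05 (FntbKO -0.19, adjusted p = 0.23; WT -0.22, adjusted p = 0.0677). Of all genes tested, 11% were called in the mean subset effect, so 1 call among 5 genes is no sign that the family stands apart. The call was lost without FntbKO cTreg 1 or FntbKO eTreg 2 (adjusted p up to 0.0626). Since the cells were measured in bulk, a smaller share of cells with an open locus and a less open locus in each cell cannot be told apart.

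Ikzf1 was also the single member whose sum passed the test between genotypes. Its highest sum was in FntbKO cTreg 1 (467 CPM) and its lowest in WT eTreg 3 (324 CPM). These libraries are the opposite ends of the first principal component, on which the genotypes were also apart within each subset. Whether the Ikzf1 effects go beyond this component of all regions was not tested. Over both subsets FntbKO cells were higher than WT cells by a log2 fold of 0.17 (SE 0.05, edgeR adjusted p = 0.0361), against 11.9% of all genes called in this comparison. The FntbKO libraries lay above the WT libraries within eTreg and within cTreg cells, with log2 folds of 0.18 (SE 0.07, adjusted p = 0.217) and 0.16 (SE 0.07, adjusted p = 0.246). This call was lost without WT eTreg 1, WT eTreg 3, WT cTreg 2, FntbKO eTreg 1, FntbKO eTreg 2 or FntbKO cTreg 1 (adjusted p up to 0.118). It was also lost under total counts as scaling, with the replicate number as a block and without WT cTreg 2 and FntbKO cTreg 1 together (adjusted p up to 0.161).

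**Figure D1:**
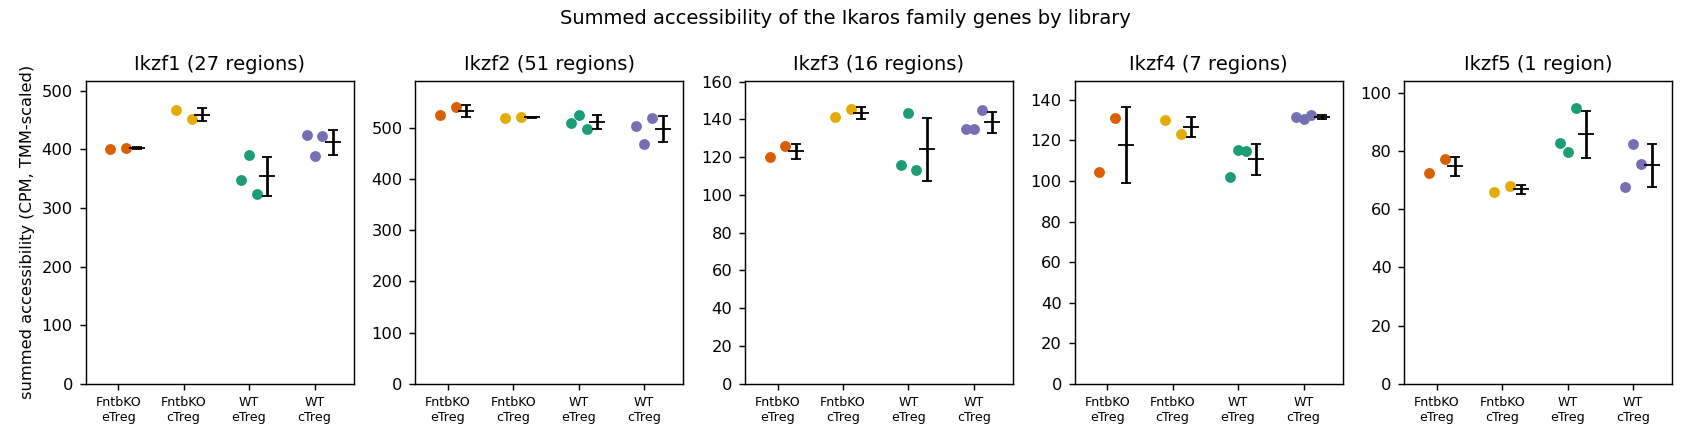
Summed accessibility (CPM, vertical axes from 0) of each Ikaros family gene in the 10 libraries, with 1 panel per gene, points for libraries and bars for the mean and SD of each group. The Ikzf1 sums of cTreg cells lie at 451 and 467 CPM in FntbKO and between 388 and 425 CPM in WT, while the Ikzf2 sums of all libraries lie between 469 and 540.4 CPM.

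The sum of the 51 Ikzf2 regions was nearly level, at 532 ± 11.5 CPM in FntbKO eTreg, 520.2 ± 0.405 in FntbKO cTreg (SD, n = 2 each), 511 ± 14.0 in WT eTreg and 497 ± 25.4 CPM in WT cTreg cells (SD, n = 3 each). The mean subset effect was 0.04 on the log2 scale (SE 0.04, edgeR adjusted p = 0.654). Ikzf3 averaged 123 ± 3.88 CPM in FntbKO eTreg, 143 ± 3.06 in FntbKO cTreg, 124 ± 16.6 in WT eTreg and 138 ± 5.71 CPM in WT cTreg cells. Its mean subset effect of -0.19 (SE 0.07) did not pass, with an adjusted p of 0.0717. Ikzf4 averaged 118 ± 18.6 CPM in FntbKO eTreg, 127 ± 4.97 in FntbKO cTreg, 111 ± 7.61 in WT eTreg and 132 ± 0.913 CPM in WT cTreg cells, with a mean subset effect of -0.17 (SE 0.07, adjusted p = 0.102). Ikzf5 had a mean subset effect of 0.18 (SE 0.07, adjusted p = 0.125) and a mean genotype effect of -0.18 (SE 0.07, adjusted p = 0.112). These are opposite in sign to the effects of Ikzf1, and neither passed. Taken one by one, no comparison called any of the 5 sums in edgeR. Of all genes, 1.96% were called in the subset effect in FntbKO, 3.47% in that in WT, 0.847% in the genotype effect in eTreg, 2.41% in that in cTreg cells and 0% in the interaction. At an unadjusted p under 0.05 there were 2 of the 5 sums in the subset effect in FntbKO (15.4% of all genes) and 3 in that in WT (16.9%). There was 1 in the genotype effect in eTreg (15.6% of all genes), 1 in that in cTreg cells (18.8%) and 0 in the interaction (2.97%). DESeq2 called 1 sum, that of Ikzf1, in the subset effect in WT and 0 in each of the others.

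Within the loci, regions were called between subsets at about the rate of all regions. In the mean effect of eTreg over cTreg of both genotypes 7 of the 102 regions were higher and 5 lower (edgeR adjusted p under 0.05), which is 11.8% of them against 11% of all 76216 regions tested, of which 6.14% were higher and 4.84% lower. All 7 that were higher belonged to Ikzf2, whose 51 regions are the largest share of the family and held 8 calls in all (15.7%; Ikzf4 had 14.3%, from 1 call of 7). The 5 that were lower were spread over Ikzf1 (2), Ikzf2 (1), Ikzf3 (1) and Ikzf4 (1). The median log2 fold change was -0.05 over the family and -0.01 over all regions, close to each other. Fewer were called without FntbKO cTreg 1 or FntbKO eTreg 2, in the family and over all regions alike. Each of these fits leaves 1 library in a group. The same held without WT cTreg 2 and FntbKO cTreg 1 together, the libraries that stood apart on the first component. DESeq2 called 8 in the family, and 7013 over all regions against 8367 in edgeR. In WT cells alone 4 regions were higher and 1 lower in eTreg cells (4.90%, against 3.44% of all regions). These 5 calls became 3 without WT cTreg 1, WT cTreg 3, WT eTreg 1 or WT eTreg 3, and 8 without WT eTreg 2. Over all regions the 2619 calls became 774, 427, 818 and 545 in these fits, in that order, and 2488 in the last. In FntbKO cells alone 1 region was higher and 0 lower (0.980%, against 1.36%).

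Most of the Ikzf2 regions called higher in eTreg cells lay on the low-coordinate side of the locus. Ikzf2 (gene 22779) spans 69531207 to 69687351 on chromosome 1, and 36 of its regions lie inside this span. Between 69461183 and 69549106, a stretch of 87.9 kb across the low-coordinate end of the span that was delimited after the values were seen, 6 of 10 regions were called higher. The other 4 had mean subset effects between 0.07 and 0.48 on the log2 scale. The remaining 41 Ikzf2 regions held 1 call higher and 1 lower, with a median effect of -0.01. Of the 10 regions, 10 had a fold above 1 in FntbKO and 7 in WT cells. The stretch begins and ends at called regions. Its calls, its directions and its contrast with the remaining regions therefore follow in part from how it was chosen, and are no test.

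**Figure D2:**
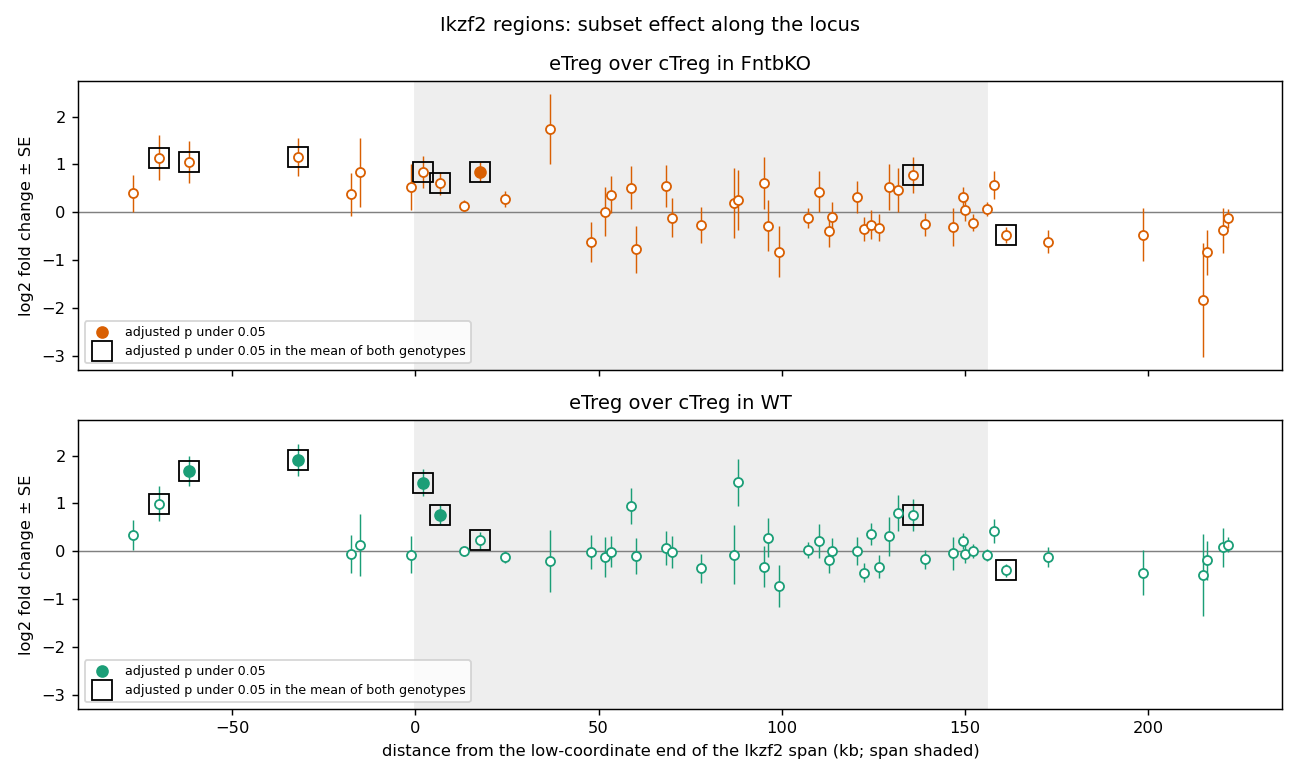
Log2 fold change of eTreg over cTreg (± SE) for the 51 Ikzf2 regions against their distance in kb from the low-coordinate end of the gene span (shaded), in FntbKO cells (upper panel) and WT cells (lower panel), with filled points for an adjusted p under 0.05 in that genotype and squares for an adjusted p under 0.05 in the mean of both. The squares crowd at the left, and the 6 called regions of the 87.9 kb stretch have mean effects between 0.53 and 1.53.

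The region with the largest mean effect lay 31.8 kb outside the span (69498855 to 69499362). It had 5.61 and 4.62 CPM in FntbKO eTreg, 1.64 and 2.72 in FntbKO cTreg, 7.83, 5.88 and 10.4 in WT eTreg and 2.23, 2.24 and 1.90 CPM in WT cTreg cells. Every eTreg library lay above every cTreg library. The fold of eTreg over cTreg was 3.74 in WT (log2 1.90, SE 0.33, edgeR adjusted p = 0.00236) and 2.22 in FntbKO (log2 1.15, SE 0.39, adjusted p = 0.138), and the mean effect was 1.53 (SE 0.26, adjusted p = 0.000468). Both calls remained without any single library and under each other setting tried. The smaller effect in FntbKO was not shown to differ from that in WT, with an interaction of -0.75 (SE 0.52, edgeR adjusted p = 0.9999).

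A region 61.4 kb outside the span (69469127 to 69469776) differed both by subset and by genotype. It had 3.61 and 2.76 CPM in FntbKO eTreg, 0.821 and 1.94 in FntbKO cTreg, 10.6, 7.97 and 8.82 in WT eTreg and 3.07, 2.75 and 2.75 CPM in WT cTreg cells. The WT eTreg libraries stood above all others, and the FntbKO eTreg libraries were at about the level of WT cTreg. The effector marker sums given above were also highest in WT eTreg, and their part here was not tested. The fold of eTreg over cTreg was 3.18 in WT (log2 1.67, SE 0.31, edgeR adjusted p = 0.00391) and 2.07 in FntbKO (log2 1.05, SE 0.43, adjusted p = 0.227). The mean genotype effect, FntbKO over WT, was -1.24 (SE 0.27, adjusted p = 0.00822), a call lost without FntbKO cTreg 1 or FntbKO eTreg 2 (adjusted p up to 0.06), and without WT cTreg 2 and FntbKO cTreg 1 together. In eTreg cells alone the FntbKO level was 0.342 of the WT level (log2 -1.55, SE 0.36), with an adjusted p of 0.0509 that lay just above the threshold in the edgeR fit and below it under 10 of 18 alternatives. The subset effect in WT and the genotype effect in eTreg share the 3 WT eTreg libraries, so they are not separate observations, and the interaction was -0.62 (SE 0.54, edgeR adjusted p = 0.9999).

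Just inside the span, the region at 69533026 to 69533364 had 6.41 and 7.87 CPM in FntbKO eTreg, 3.69 and 4.28 in FntbKO cTreg, 9.64, 6.37 and 10.2 in WT eTreg and 2.51, 3.96 and 3.17 CPM in WT cTreg cells. All eTreg libraries were above all cTreg libraries, with a fold of 2.71 in WT (log2 1.44, SE 0.29, edgeR adjusted p = 0.00679, but 0.0532 without WT cTreg 3) and 1.79 in FntbKO (log2 0.84, SE 0.34, adjusted p = 0.214). The mean effect of 1.14 (SE 0.22, adjusted p = 0.00167) was called without each library in turn. The next region inside the span, at 69537617 to 69538352, had 13.6 and 17.9 CPM in FntbKO eTreg, 9.44 and 11.3 in FntbKO cTreg, 16.0, 14.9 and 15.9 in WT eTreg and 7.82, 7.57 and 11.7 CPM in WT cTreg cells. The eTreg libraries were again all above the cTreg libraries, with a mean effect of 0.69 (SE 0.16, edgeR adjusted p = 0.00567), lost without FntbKO eTreg 2 (adjusted p = 0.0791). In WT alone the log2 fold was 0.77 (SE 0.20, adjusted p = 0.0341), a call lost without WT cTreg 1, WT cTreg 2, WT eTreg 1 or WT eTreg 3 (adjusted p up to 0.14), and without WT cTreg 2 and FntbKO cTreg 1 together.

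The one call within FntbKO cells was 17.6 kb into the span, at 69548510 to 69549106. This region had 18.4 and 18.7 CPM in FntbKO eTreg, 9.57 and 11.02 in FntbKO cTreg, 14.7, 14.9 and 15.6 in WT eTreg and 12.4, 13.2 and 12.9 CPM in WT cTreg cells. The subset gap was widest in FntbKO cells, whose eTreg libraries were the highest and whose cTreg libraries were the lowest of all. The fold of eTreg over cTreg was 1.79 in FntbKO (log2 0.84, SE 0.21, edgeR adjusted p = 0.0389) and 1.17 in WT (log2 0.23, SE 0.17, adjusted p = 0.523). The FntbKO call was lost without WT eTreg 1, WT cTreg 3 or any of the 4 FntbKO libraries (adjusted p up to 0.474), and without WT cTreg 2 and FntbKO cTreg 1 together. The mean effect of 0.53 (SE 0.13, adjusted p = 0.011) was lost without FntbKO cTreg 1 or FntbKO eTreg 2 (adjusted p up to 0.0678). The interaction was 0.61 (SE 0.27) but did not pass over all regions (edgeR adjusted p = 0.9999).

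**Figure D3:**
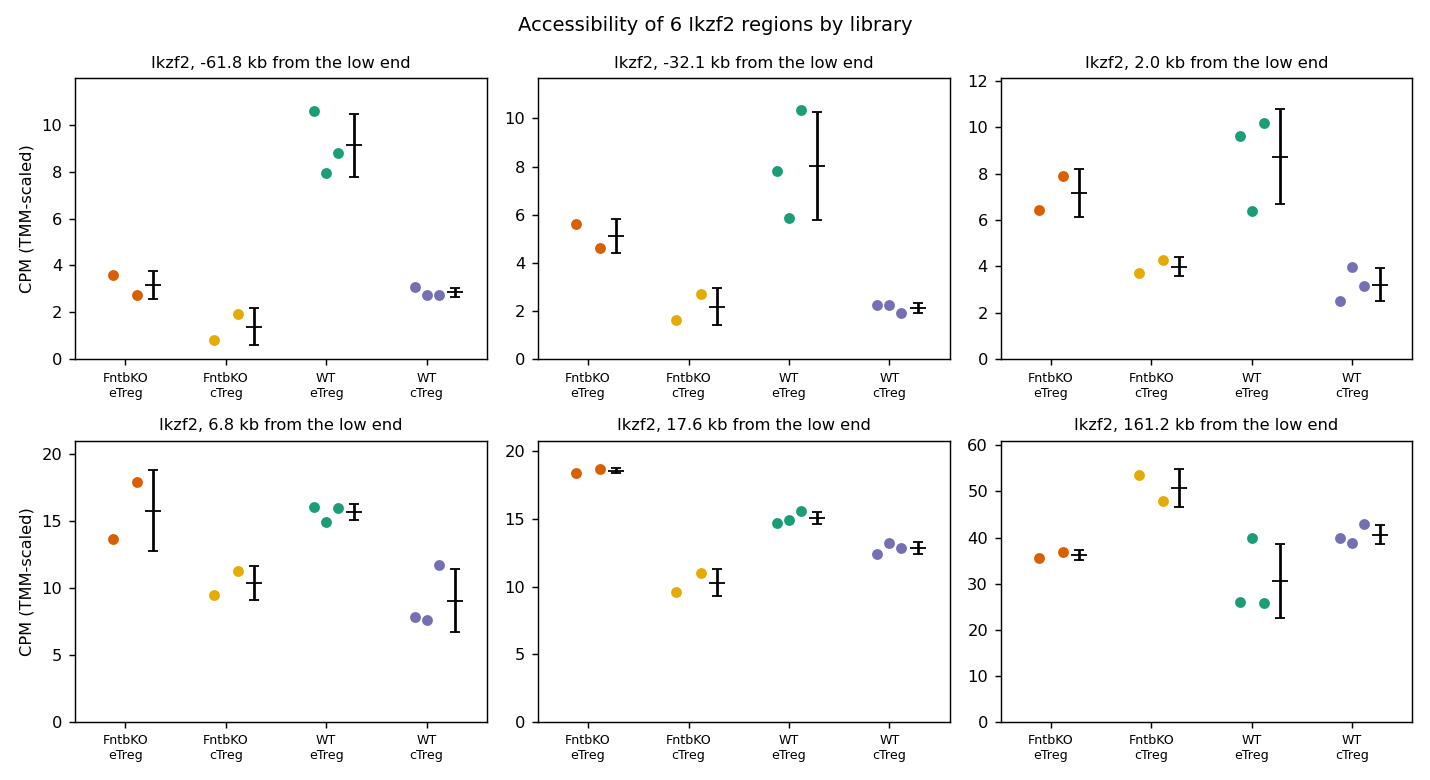
Accessibility in CPM (vertical axes from 0) of 6 Ikzf2 regions in the 10 libraries, with points for libraries, bars for the mean and SD of each group, and the distance of the middle of the region from the low-coordinate end of the span above each panel. In the panel at -61.8 kb the 3 WT eTreg libraries lie between 7.97 and 10.6 CPM and all others at or below 3.61 CPM, and in the panel at 161 kb the eTreg libraries lie lower than the cTreg libraries on average.

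The sixth region of the stretch, 69.7 kb outside the span (69461183 to 69461550), was low in every library, from 0.821 CPM in FntbKO cTreg 1 to 5.78 CPM in WT eTreg 2. Its mean effect of 1.07 (SE 0.30, edgeR adjusted p = 0.0211) was lost without FntbKO cTreg 1 or FntbKO eTreg 2 (adjusted p up to 0.127), and without WT cTreg 2 and FntbKO cTreg 1 together. Among the regions of the stretch that were not called was the most accessible of the whole locus, at 69544174 to 69544670. It had 67.3 and 72.2 CPM in FntbKO eTreg, 64.0 and 63.4 in FntbKO cTreg, 67.8, 70.2 and 65.7 in WT eTreg and 69.8, 69.7 and 65.0 CPM in WT cTreg cells. Its mean subset effect was 0.07, so the regions that were higher in eTreg cells were ones of low or middling level, between 3.37 and 14.2 CPM on average, around a region of high and level signal.

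At the other end of Ikzf2 the picture differed. The region over the high-coordinate end of the span (69686931 to 69687763) had 54.1 and 53.3 CPM in FntbKO eTreg, 57.6 and 45.3 in FntbKO cTreg, 44.5, 43.4 and 41.6 in WT eTreg and 57.1, 38.7 and 41.6 CPM in WT cTreg cells, with a mean subset effect of -0.01. A region 4.60 kb beyond that end (69691953 to 69692820) was lower in eTreg cells. It had 35.5 and 36.9 CPM in FntbKO eTreg, 53.6 and 47.8 in FntbKO cTreg, 26.0, 39.8 and 25.8 in WT eTreg and 39.9, 38.9 and 42.9 CPM in WT cTreg cells. The FntbKO subsets did not overlap, and in WT 1 eTreg library reached the level of cTreg cells. The mean effect was -0.44 (SE 0.11, edgeR adjusted p = 0.00842), a call lost without FntbKO cTreg 1 (adjusted p = 0.0527). Inside the span at 69666897 to 69667195, a region of 4.55 CPM on average had a mean effect of 0.77 (SE 0.25, adjusted p = 0.046), which was kept only without WT eTreg 1, WT cTreg 2 or FntbKO cTreg 2 among the libraries left out in turn (adjusted p up to 0.229). It was lost under DESeq2, halved counts, total counts as scaling and without WT cTreg 2 and FntbKO cTreg 1 together.

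At Ikzf4, which encodes the Foxp3 partner Eos (gene 22781, 128630839 to 128669671 on chromosome 10), all 7 regions lay inside the span. The most accessible, at 128636636 to 128637547, had 64.1 and 82.3 CPM in FntbKO eTreg, 81.8 and 76.2 in FntbKO cTreg, 60.2, 67.1 and 69.6 in WT eTreg and 81.8, 77.1 and 78.3 CPM in WT cTreg cells. The WT subsets did not overlap and the FntbKO subsets did, and the mean effect of -0.18 (SE 0.08, edgeR adjusted p = 0.138) was not called. The region at 128645583 to 128646065 had 11.4 and 15.5 CPM in FntbKO eTreg, 19.0 and 17.2 in FntbKO cTreg, 13.01, 13.1 and 15.6 in WT eTreg and 15.6, 20.8 and 21.1 CPM in WT cTreg cells. It was lower in eTreg cells by a mean effect of -0.43 (SE 0.14, adjusted p = 0.0438), a call kept only without WT cTreg 1 or WT eTreg 3 among the libraries left out in turn (adjusted p up to 0.182), and lost under DESeq2 and without WT cTreg 2 and FntbKO cTreg 1 together.

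Per kb of width, the most accessible region of the family was in Ikzf2 (136 CPM per kb). By mean CPM the highest lay inside Ikzf1 (gene 22778, 11684962 to 11772930 on chromosome 11) and was lower in eTreg cells. This region, at 11725453 to 11726660, had 97.2 and 93.4 CPM in FntbKO eTreg, 119.7 and 109 in FntbKO cTreg, 77.3, 83.4 and 70.6 in WT eTreg and 118, 90.0 and 106 CPM in WT cTreg cells. Within each genotype all eTreg libraries were below all cTreg libraries. The fold of eTreg over cTreg was 0.737 in WT (log2 -0.44, SE 0.10, edgeR adjusted p = 0.0139) and 0.835 in FntbKO (log2 -0.26, SE 0.12, adjusted p = 0.292). The WT call was lost without WT cTreg 1, WT cTreg 3, WT eTreg 1 or WT eTreg 3 (adjusted p up to 0.117). The mean effect of -0.35 (SE 0.08, adjusted p = 0.00458) was called without each library in turn and under each other setting tried. The FntbKO eTreg libraries were above the WT eTreg libraries by a log2 fold of 0.30 (SE 0.11), which did not pass over all regions (edgeR adjusted p = 0.251).

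Another Ikzf1 region, at 11741556 to 11741993, had 13.6 and 14.2 CPM in FntbKO eTreg, 21.6 and 18.8 in FntbKO cTreg, 16.4, 16.5 and 11.2 in WT eTreg and 18.4, 16.5 and 19.8 CPM in WT cTreg cells. The mean effect of -0.41 (SE 0.14, edgeR adjusted p = 0.0482) lay close to the threshold and was kept only without WT cTreg 2 or WT eTreg 2 among the libraries left out in turn (adjusted p up to 0.192). It was lost under DESeq2, under DESeq2's size factors in edgeR, under total counts as scaling and without WT cTreg 2 and FntbKO cTreg 1 together. The regions over the Ikzf1 sequences printed above were level between the subsets. The region that holds the first Ikzf1 start (11685328 to 11686365) averaged 29.2 ± 4.58 CPM in FntbKO eTreg, 26.7 ± 1.39 in FntbKO cTreg (SD, n = 2 each), 25.0 ± 3.41 in WT eTreg and 25.6 ± 4.10 CPM in WT cTreg cells (SD, n = 3 each). That of the second start (11689893 to 11690871) averaged 29.7 ± 1.17 CPM in FntbKO eTreg, 31.9 ± 1.91 in FntbKO cTreg, 32.9 ± 4.29 in WT eTreg and 32.0 ± 3.36 CPM in WT cTreg cells. Their mean subset effects were 0.03 and -0.02, while 20 of the 27 Ikzf1 regions had a mean fold under 1.

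**Figure D4:**
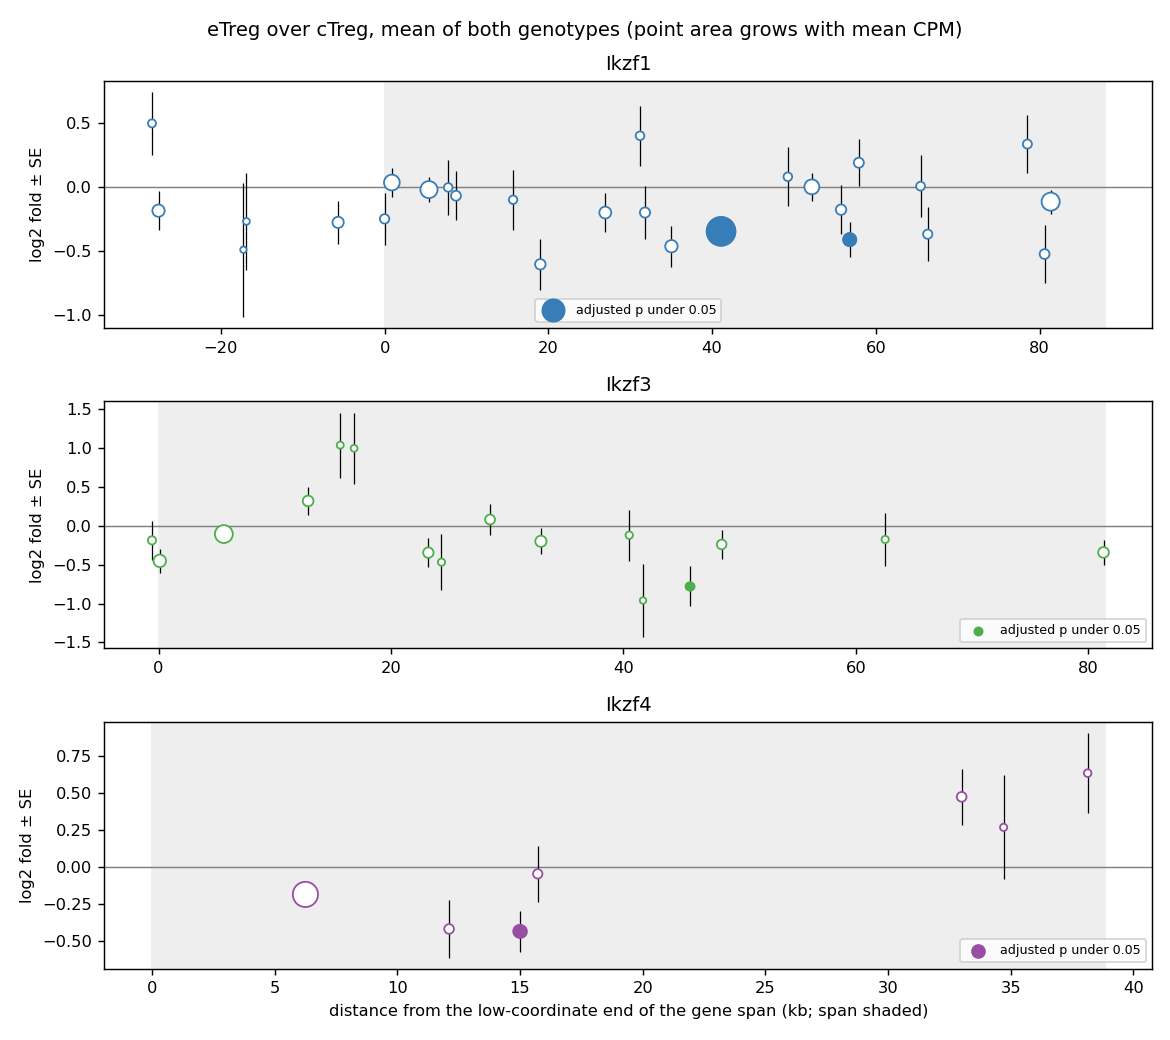
Mean log2 fold change of eTreg over cTreg of both genotypes (± SE) for the regions of Ikzf1, Ikzf3 and Ikzf4 against their distance in kb from the low-coordinate end of the gene span (shaded), with larger points for higher mean CPM and filled points for an adjusted p under 0.05. The largest filled point is the Ikzf1 region of 96.4 CPM at -0.35, and no region of these genes is called above 0.

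Ikzf3 encodes Aiolos, the closest relative of Ikaros, and spans 98464610 to 98546031 on chromosome 11 (gene 22780). Its most accessible region, at 98469790 to 98470673, averaged 33.2 ± 2.74 CPM in FntbKO eTreg, 36.7 ± 3.41 in FntbKO cTreg (SD, n = 2 each), 34.4 ± 2.91 in WT eTreg and 36.4 ± 1.61 CPM in WT cTreg cells (SD, n = 3 each), and was not called. The region at 98510133 to 98510480 had 2.00 and 3.25 CPM in FntbKO eTreg, 3.83 and 6.42 in FntbKO cTreg, 3.85, 4.18 and 2.21 in WT eTreg and 5.72, 4.99 and 5.39 CPM in WT cTreg cells. The eTreg libraries were lower within each genotype, with a mean effect of -0.78 (SE 0.26) and an edgeR adjusted p of 0.0497 at the edge of the threshold. It was kept only without WT cTreg 2 or WT eTreg 2 among the libraries left out in turn (adjusted p up to 0.257), and was lost under DESeq2, both other scalings and both other filters.

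Ikzf5 had a single region, 131410003 to 131410869 on chromosome 7, over the start of the gene (gene 67143, 131388649 to 131410518, minus strand). The region also overlaps the span of Acadsb, a mitochondrial acyl-CoA dehydrogenase gene, so its signal cannot be given to either gene alone. It had 70.5 and 74.0 CPM in FntbKO eTreg, 63.0 and 64.6 in FntbKO cTreg, 81.7, 76.3 and 94.0 in WT eTreg and 65.9, 78.5 and 71.8 CPM in WT cTreg cells. FntbKO libraries were below WT libraries in each subset, but neither the mean subset effect (0.20, SE 0.08, edgeR adjusted p = 0.0993) nor the mean genotype effect (-0.19, SE 0.08, adjusted p = 0.167) was called.

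Few regions of the family passed the test between FntbKO and WT cells. In cTreg cells 0 of the 102 regions were called between FntbKO and WT, against 0.568% of all regions, with 11 at an unadjusted p under 0.05 in edgeR (12.4% of all regions were) and 0 calls in DESeq2. In eTreg cells edgeR called 0, against 0.35% of all regions, with 14 at an unadjusted p under 0.05 (12.2% of all regions were), and DESeq2 called 1, the Ikzf2 region at 69469127 described above. The mean genotype effect gave 0 higher and 2 lower regions (1.96%, against 3.99% of all regions): that same Ikzf2 region and an Ikzf3 region of few counts. The Ikzf3 region, at 98481341 to 98481541, had 0.601 and 0.984 CPM in FntbKO eTreg, 0.274 and 0.583 in FntbKO cTreg, 4.58, 1.79 and 3.56 in WT eTreg and 1.26, 1.20 and 1.80 CPM in WT cTreg cells. All FntbKO libraries were below all WT libraries, with a mean effect of -1.78 (SE 0.45, edgeR adjusted p = 0.0234) that rests on 134 counts in all. It was lost without WT eTreg 1, WT eTreg 3, WT cTreg 3, FntbKO eTreg 1, FntbKO eTreg 2 or FntbKO cTreg 1 (adjusted p up to 0.0934), without WT cTreg 2 and FntbKO cTreg 1 together, and with the replicate number as a block. Within each subset the summed B cell marker signal given above was also lower in the FntbKO libraries, and its part in this result was not tested.

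Whether the subset effect depended on the genotype was asked with the interaction term. It called 0 of the 102 regions in edgeR and 0 in DESeq2, as it called 0% of all regions, with 4 members at an unadjusted p under 0.05 in each tool (4.07% of all regions were in edgeR). The subset effects in FntbKO and in WT, which come from separate libraries, had the same sign in 66 of the 102 regions (64.7%, against 67.9% of all regions) and a Pearson r of 0.54 across regions (0.51 over all regions). The genotype effects in eTreg and in cTreg had the same sign in 70 regions (68.6%, against 64.7%) and an r of 0.42 (0.38 over all regions). Regions of a gene share their libraries and depth and are not independent, so these values are descriptions.

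**Figure D5:**
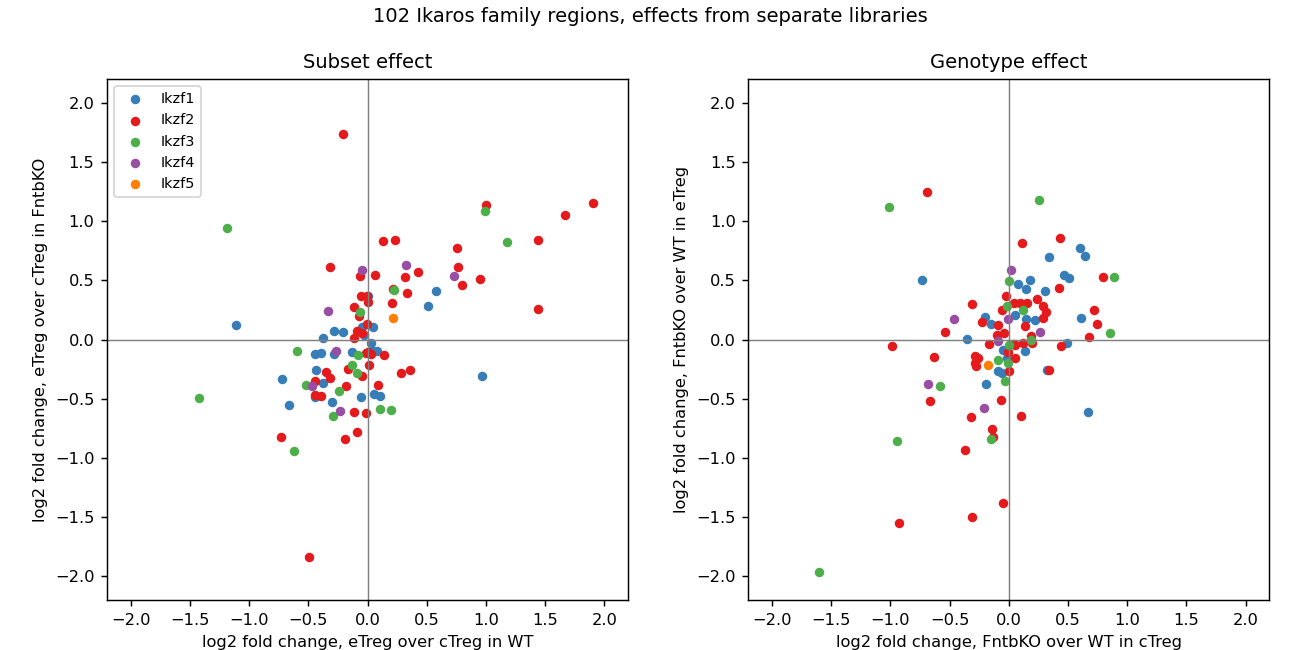
Log2 fold changes of the 102 Ikaros family regions, coloured by gene: eTreg over cTreg in FntbKO (vertical) against WT (horizontal) on the left, and FntbKO over WT in eTreg (vertical) against cTreg (horizontal) on the right. The points furthest right in the left panel are 4 Ikzf2 regions, with log2 folds between 1.44 and 1.90 in WT and between 0.26 and 1.15 in FntbKO. Ikzf3 points reach 1.18 in WT and 1.09 in FntbKO, and the largest mean subset effect of an Ikzf3 region is 1.04, which was not called.

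The partners and targets of the family were described from lists, whose regions were not followed through the alternative fits. Of 17 genes of NuRD and related corepressors, 16 had regions, 99 in all, of which 6 were higher and 3 lower in the mean subset effect (9.09%, against 11% of all regions). A region of Mta3, a NuRD subunit (83730163 to 83730461 on chromosome 17), had 9.22 and 8.56 CPM in FntbKO eTreg, 2.87 and 3.70 in FntbKO cTreg, 10.7, 9.66 and 12.05 in WT eTreg and 4.05, 5.16 and 3.27 CPM in WT cTreg cells. Every eTreg library exceeded every cTreg library, and the effect passed in FntbKO (log2 1.40, SE 0.31, edgeR adjusted p = 0.0232) and in WT (log2 1.39, SE 0.26, adjusted p = 0.00344). A region of the NuRD subunit gene Gatad2a was higher by a mean effect of 0.94 (SE 0.21, adjusted p = 0.00461), and one of the subunit gene Mta1 was lower by -1.19 (SE 0.30, adjusted p = 0.0115). In the mean genotype effect 1 of the 99 regions was called (1.01%, against 3.99% of all regions), another region of Mta3, lower in FntbKO cells.

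Cereblon is the substrate receptor of the ubiquitin ligase through which lenalidomide-type drugs direct Ikaros and Aiolos to degradation in human cells. Its ligase was covered by 14 regions of 4 of 5 genes. In the mean genotype effect 2 of these, both of Crbn itself, were higher in FntbKO cells and 0 lower (14.3%, against 3.99% of all regions). The mean subset effect and the genotype effects in eTreg and in cTreg cells alone each called 0 of the 14. Of all regions they called 11%, 0.35% and 0.568%. The stronger, at 106792927 to 106793529 on chromosome 6, had 61.5 and 42.5 CPM in FntbKO eTreg, 59.4 and 47.1 in FntbKO cTreg, 38.5, 32.9 and 36.0 in WT eTreg and 28.5, 22.2 and 39.0 CPM in WT cTreg cells. FntbKO libraries lay above all WT libraries, with a mean effect of 0.66 (SE 0.14, edgeR adjusted p = 0.0139).

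The 9 genes reported as bound or repressed by Ikaros family factors were Il2, Ifng, Tbx21, Hes1, Dtx1, Dntt, Il7r, Cd8a and Igll1. They had 70 regions, with 6 higher and 11 lower in the mean subset effect (24.3%, against 11% of all regions). Il7r is also on the central Treg list (20.7% called) and Cd8a on that of CD8 T or NK cells (20.6%). The share above that of all regions therefore cannot be read as a trait of such targets alone. The median log2 fold over the list was -0.07, against -0.01 over all regions. Beside Ifng, the gene of interferon-γ, a region at 118435226 to 118435923 on chromosome 10 had 9.22 and 9.84 CPM in FntbKO eTreg, 3.01 and 3.63 in FntbKO cTreg, 7.47, 14.3 and 11.2 in WT eTreg and 1.68, 3.44 and 4.65 CPM in WT cTreg cells. The eTreg libraries exceeded all cTreg libraries, with log2 folds of 1.501 in FntbKO (SE 0.36, edgeR adjusted p = 0.0367) and 1.73 in WT (SE 0.31, adjusted p = 0.00267). Another region assigned to Ifng, at 118460123 to 118460640, went the other way. It had 10.2 and 10.6 CPM in FntbKO eTreg, 18.1 and 12.3 in FntbKO cTreg, 8.07, 7.97 and 9.16 in WT eTreg and 18.2, 14.5 and 19.5 CPM in WT cTreg cells. All eTreg libraries were below all cTreg libraries, with a log2 fold of -1.06 in WT (SE 0.20, adjusted p = 0.00404). A region of Tbx21, which encodes the T helper factor T-bet, was higher by a mean effect of 1.65 (SE 0.28, adjusted p = 0.000504). The named regions are those of smallest adjusted p, so they do not mirror the 11 lower and 6 higher calls of the list. In the mean genotype effect 1 of the 70 regions was called (1.43%, against 3.99% of all regions), at the interleukin-7 receptor gene Il7r, higher in FntbKO cells by 0.42 (SE 0.11, adjusted p = 0.0332). No region of the list was tied to binding by a family member in these data.

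By the correlation of log2 CPM sums over the 10 libraries, compared among 4660 genes with enough regions, the genes most like Ikzf1 were Gm14569 (Pearson r 0.99), Esrp1 (0.98) and Znrf3 (0.98). Those most like Ikzf2 were Erich1 (0.95), Tuba1b (0.94) and Ube2d3 (0.92). Ikzf3 was most like Car12 (0.96), Rnf43 (0.95) and Txnip (0.94), and Ikzf4 most like Tmem242 (0.95), Ift81 (0.89) and Spred2 (0.88). Ikzf5 was nearest to Unkl (0.97), Pdcd6ip (0.96) and Nktr (0.96). These libraries fall into 4 groups and share their depth and scaling, so a high r describes a shared order of libraries only.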

How the data were processed

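Chromatin accessibility was measured by ATAC-seq in 10 libraries of 4 groups, taken from the titles of the samples. The authors deposited 1 table of raw counts per region, with no normalization. Per the submitters' processing notes, the tools were MACS2 2.1.1, bedtools, Picard 2.9.4, Trimmomatic 0.36 and SAMtools, with the builds GRCm38 and mm10. How regions were merged, and with which aligner, is not given in the sources used here. Between 66.7% and 78.9% of the counts of a library were even, as if mates had been counted separately, so halved counts were tried too. Coordinates follow the table. Whether its starts count from 0 or 1 is not stated there. Gene spans, symbols and promoter sequences are RefSeq's for GRCm38.p6. The tables give no strand for Ikzf2, Ikzf3 and Ikzf4.

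After TMM scaling, edgeR 4.0.16 (limma 3.58.1, R 4.3.3) gave quasi-likelihood tests (robust, filterByExpr, 1 mean per group, 6 residual degrees of freedom). Benjamini-Hochberg adjustment ran over all 76216 tested regions, or over 15230 genes for counts summed per gene. Mean effects average the effects of both genotypes or both subsets in the same fit, and share their libraries. CPM are TMM-scaled within each table, so the Ikzf5 sum differs slightly from its single region. DESeq2 1.42.0 (Wald test), other scalings and filters, a replicate block, regions inside the span only, and each library left out were alternatives. The pipeline was tested on simulated data. Same-numbered libraries correlated at -0.0781 to 0.18 in their deviations from the group means, with 5 of 13 pairs over 0.1. Same-numbered eTreg and cTreg libraries of one genotype all correlated above 0, at 0.0317 to 0.18. The 2 libraries of an FntbKO group have mirrored deviations (r = -1), so the same-numbered FntbKO pairs repeat 1 value and these counts are no test. The labels do not say that the numbers pair samples, so the main fit has no block, and a pairing within a genotype remains possible.

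The family, the gene lists and the tests were chosen with earlier results of these data known. Named regions were those called in any comparison (up to 8 per gene), those over a span end, and the most accessible of each gene by mean CPM. From each list, up to 3 called regions per comparison were named. Genes likened to a member needed 5 regions and a mean sum of 20 CPM. The 87.9 kb Ikzf2 stretch was outside this rule.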

Additional observations from a re-analysis of the deposited data

Results flagged for a closer look

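In 4 regions the libraries of 2 groups were apart in one direction within one subset or genotype and in the opposite direction within the other, which 2.21% of all tested regions showed. None of the 4 interactions passed over all regions (edgeR adjusted p = 0.9999 each). The Ikzf2 region at 69548510 was lower in FntbKO than in WT cTreg cells and higher in FntbKO than in WT eTreg cells, with an interaction of 0.61 on the log2 scale (SE 0.27). The Ikzf2 region at 69655489 had 5.21 and 4.72 CPM in FntbKO eTreg, 6.29 and 5.58 in FntbKO cTreg, 8.79, 7.67 and 8.65 in WT eTreg and 7.12, 5.51 and 6.76 CPM in WT cTreg cells, with an interaction of -0.62 (SE 0.39). The Ikzf4 region at 128646413 had 8.41 and 8.07 CPM in FntbKO eTreg, 6.56 and 7.26 in FntbKO cTreg, 4.94, 5.98 and 5.43 in WT eTreg and 7.68, 6.88 and 6.13 CPM in WT cTreg cells, with an interaction of 0.57 (SE 0.38). The Ikzf3 region at 98504956 had 4.81 and 2.56 CPM in FntbKO eTreg, 0.821 and 2.59 in FntbKO cTreg, 1.45, 1.99 and 1.36 in WT eTreg and 3.63, 3.44 and 4.01 CPM in WT cTreg cells. It was lower in FntbKO than in WT cTreg cells and higher in FntbKO than in WT eTreg cells, with an interaction of 2.13 (SE 0.66).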

How the results depend on the processing

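Of 20 calls of a single region in a comparison, 6 were kept without each library in turn, 14 were lost without at least 1 library and 0 changed sign. With 1 library of each pair left out, the lone library of an FntbKO group was assumed to vary like the other groups. Calls over all regions moved too. With a WT library left out, those of eTreg over cTreg in WT ranged from 427 to 3664 (2619 with all libraries). The counts of called regions, with each library left out, ranged from 3 to 8 for eTreg over cTreg in WT (5 with all libraries), 0 to 1 for eTreg over cTreg in FntbKO (1), 0 to 1 for FntbKO over WT in eTreg (0), 5 to 14 for the mean subset effect (12) and 0 to 4 for the mean genotype effect (2). The counts of called gene sums ranged from 0 to 1 for eTreg over cTreg in WT (0), 0 to 2 for the mean subset effect (1) and 0 to 1 for the mean genotype effect (1).

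Regions inside the span only gave 3 calls for eTreg over cTreg in WT and 1 for the mean genotype effect, by construction. For FntbKO over WT in eTreg, 1 region was called with DESeq2's size factors in edgeR, with at least 10 counts in at least 5 libraries, with the DESeq2 Wald test, with halved counts and without WT cTreg 2 and FntbKO cTreg 1 together. The last setting, added after the data were seen because these libraries stood apart, also gave 0 calls for eTreg over cTreg in FntbKO, 0 for the mean genotype effect, 8 for the mean subset effect, and 1 and 0 called gene sums for eTreg over cTreg in WT and for the mean genotype effect. For gene sums, the DESeq2 Wald test called 1 in eTreg over cTreg in WT, and total counts as scaling called 0 in the mean genotype effect. The replicate block, whose numbers are not shown to pair the samples, gave 1 called region for FntbKO over WT in eTreg and 2, 3 and 0 called gene sums for eTreg over cTreg in WT, the mean subset effect and the mean genotype effect. With it the family's region calls in the mean subset effect rose from 12 to 16. Over all regions, calls in the mean subset effect rose from 8367 to 10348. Those of eTreg over cTreg in 1 genotype rose from 2619 to 4141 in WT and from 1033 to 2480 in FntbKO. In the deviations from the group means, with no block fitted, 8 of 10 libraries correlated best with a library of their own number. The deviations of the 2 libraries of an FntbKO group mirror each other (r = -1). The same-numbered FntbKO pairs therefore share 1 value (0.18), their matches are not separate observations, and the count is no test of a pairing. The cause of these shifts was not tested.

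Some uncalled gene sums near 0 changed sign. The Ikzf2 subset effect in WT was -0.0011 without WT cTreg 2 and FntbKO cTreg 1, and ranged from -0.0012 to 0.0699 with each library left out. Under total counts as scaling the mean genotype effect was -0.0049 for Ikzf3 and -0.0014 for Ikzf4, and with each library left out it ranged from -0.01004 to 0.0778 and from -0.0694 to 0.0927. The ranges were -0.273 to 0.0473 for Ikzf4 in eTreg over cTreg in FntbKO, and -0.0714 to 0.104 for Ikzf3 and -0.0811 to 0.243 for Ikzf4 in FntbKO over WT in eTreg. Depth limits the weakest regions, which held as few as 61 counts over all libraries.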
